A study of Mus musculus with 4 samples.

Results

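Immediate early genes are transcribed within minutes of a stimulus from factors already present in the cell, without new protein synthesis. Growth factors, calcium entry and stress reach them through MAP kinases and CREB, and many of their products are transcription factors or brakes on the same kinases. In brain tissue, Fos, Egr1 and Nr4a1 are widely used as marks of recently stimulated cells. The 10 genes described here (Fos, Fosb, Jun, Junb, Egr1, Ier2, Dusp1, Atf3, Klf4 and Nr4a1) were taken by symbol from the 27293 genes of the deposited table, and all 10 were found.

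Total RNA came from telencephalic tissue of C57BL/6 mouse embryos at embryonic day 13 (E13) and was sequenced in 4 libraries. Libraries WT 1 and WT 2 were labelled wild type, and cKO 1 and cKO 2 were labelled STINGf/f;Nestin-Cre, which carry a floxed gene of STING, an adaptor of cytosolic DNA sensing. Cre from the Nestin promoter acts in neural progenitors and their progeny, so vessels, blood and meninges in the tissue were not the intended target. The labels do not say whether a library pools embryos, or whether the floxed allele or Cre alone was present in a WT embryo. The title of WT 2 ends in nes and that of WT 1 in wt, and the labels do not explain nes. P-values therefore measure the spread between these libraries only.

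Reads on genes numbered 17209654 to 18533391 per library, so that 3 counts, the upper limit a count of 0 allows, equal 0.162 to 0.174 CPM, the count scaled to equal library size. The STING gene, listed as Tmem173, was counted 20 and 19 times in WT 1 and WT 2, and 18 and 22 times in cKO 1 and cKO 2, and a sum over all its exons does not check the deletion of a part. WT 2 had 0 counts of 4 genes of the Y chromosome (Uty, Kdm5d, Ddx3y and Eif2s3y), against sums of 1848 to 3002 elsewhere. WT 1 stood apart in non-neural markers. The 10 measured choroid plexus markers summed to 74.6 CPM there and 14.3 to 16.2 elsewhere, and 15 markers of meninges and mesenchyme to 357.8 against 72.2 to 116.9. Of these, Kcne2, Aqp1, Otx2, Col1a1 and Col1a2 were called lower in cKO at the thresholds given below. Without WT 1, the median log2 fold change of the tested markers went from -1.99 to -0.11 for choroid plexus and from -1.24 to 0.22 for meninges and mesenchyme. The 12 cortical progenitor markers, led by Vim, Nes and Lhx2, summed to 3217.7 to 3527.1 CPM and the 12 ventral telencephalon markers to 817.4 to 1241.7, so that the tissue was neural and not cortex alone. In such bulk tissue, fewer cells of a type and less RNA per cell cannot be told apart.

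The promoters of 8 of the 10 genes were found in the RefSeq table (GRCm38.p6), each as 250 bases before and 50 after the transcript start. The short CRE motif TGACG, the first 5 bases of the element TGACGTCA that CREB and ATF proteins bind, was searched on both strands and lay in 7 of the 8 promoters, all but that of Jun. Of all 32851 promoters of this length, 20.8% hold it. The full CRE, TGACGTCA, which contains the short motif on both strands, lay in that of Dusp1 only (1.79% of all promoters). The EGR site GCGNGGGCG lay in those of Fosb, Klf4 and Nr4a1 (5.55%), the TATA box TATAAA in those of Fos and Junb (13.6%) and an NF-κB site in those of Fos, Fosb and Nr4a1 (8.46%). The TATAAA of Fos lay at -33 to -28 from the start. That of Junb lay on the start itself, outside the stretch printed below. Neither the AP-1 site TGANTCA (7.81%) nor a CArG box (1.63%), the element bound by SRF, was found in any of the 8 windows, which do not reach the upstream element where SRF is known to act on Fos. A match is a match of letters only, and near matches were not searched. The stretch of Jun printed below holds tgacatca, with an a in place of the G of TGACGTCA.

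The following stretches show matches in 7 promoters, for what these genes share in sequence, and the 80 bases before the start of Jun for contrast, each 5′ to 3′ on the strand of the gene. Capitals mark a short CRE motif (TGACG, or CGTCA on the other strand), an EGR site or a TATA box. Fos lies at chr12:85473751-85473872 on the plus strand, Fosb at chr7:19310077-19310115 on the minus strand, Junb at chr8:84978840-84978864 on the minus strand, and Jun at chr4:95052223-95052302 on the minus strand. Dusp1 lies at chr17:26508598-26508673 on the minus strand, Nr4a1 at chr15:101266767-101266820 on the plus strand, Klf4 at chr4:55532651-55532717 on the minus strand, and Atf3 at chr1:191183334-191183350 on the minus strand. The transcript start used for Atf3 lies inside the gene, which begins at base 191218039 on the minus strand, and the bases before that outer start were not searched.
Fos: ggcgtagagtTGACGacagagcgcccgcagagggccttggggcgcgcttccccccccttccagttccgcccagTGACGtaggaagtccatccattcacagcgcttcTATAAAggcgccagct
Fosb: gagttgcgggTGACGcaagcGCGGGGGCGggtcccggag
Junb: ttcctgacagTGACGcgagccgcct
Jun: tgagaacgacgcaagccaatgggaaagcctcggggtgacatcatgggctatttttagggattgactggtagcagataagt
Dusp1: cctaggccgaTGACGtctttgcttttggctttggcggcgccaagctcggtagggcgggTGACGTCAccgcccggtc
Nr4a1: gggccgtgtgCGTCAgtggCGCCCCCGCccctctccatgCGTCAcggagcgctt
Klf4: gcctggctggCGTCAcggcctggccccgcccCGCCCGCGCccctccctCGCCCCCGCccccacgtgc
Atf3: aatagcattaCGTCAgc

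**Figure D1:**
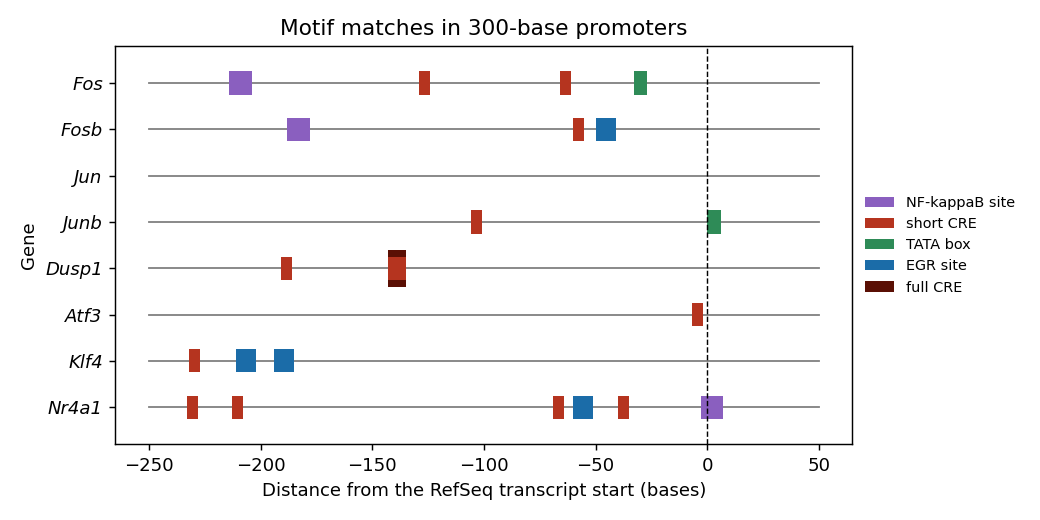
Motif matches (coloured boxes, to scale) in the promoters of 8 immediate early genes, by distance in bases from the RefSeq transcript start (dashed line), over 250 bases before and 50 after it. Short CRE motifs (in red) lie in 7 of the 8 promoters, Dusp1 alone holds a full CRE, and the promoter of Jun holds no exact match. Near matches were not searched.

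The 10 genes spanned a wide range of levels in the E13 telencephalon. Levels were compared between genes as normalised CPM per kilobase (kb) of exon, using the union of GENCODE M21 exons. Jun, which encodes a core subunit of the AP-1 transcription factor, had the highest mean over the 4 libraries, 37.1 CPM per kb, above 90.5% of the 13719 protein-coding genes tested. Ier2, which encodes a small nuclear protein, followed at 15.6 CPM per kb. Dusp1, the gene of a phosphatase that switches off MAP kinases, had 11.4. Jun lay above both in every library. The exon union of Dusp1, 3311 bases, is longer than its span of 2930 bases in the deposited table. Its level per kb may therefore be too low, and the ranges of Ier2 and Dusp1 may overlap. The ends of Nr4a1 did not both match GENCODE M21 either.

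Much lower lay Nr4a1 (2.21 CPM per kb), which encodes an orphan nuclear receptor, Junb (1.82), another AP-1 subunit, and Klf4 (1.27), a zinc finger factor of stem cells and endothelium. The levels per kb of Nr4a1 and Junb overlapped between libraries, and so did those of Junb and Klf4. Egr1, a zinc finger factor of the Egr family, had 0.614 CPM per kb and overlapped with neither neighbour. Fos, the classical partner of Jun in AP-1, had 0.314, above only 6.28% of protein-coding genes tested. Atf3, a stress-responsive bZIP factor, had 0.214 and overlapped with Fos. Fosb, a relative of Fos, was lowest at 0.0315 CPM per kb. Jun alone held 59.2% of the summed CPM of the 10 genes.

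**Figure D2:**
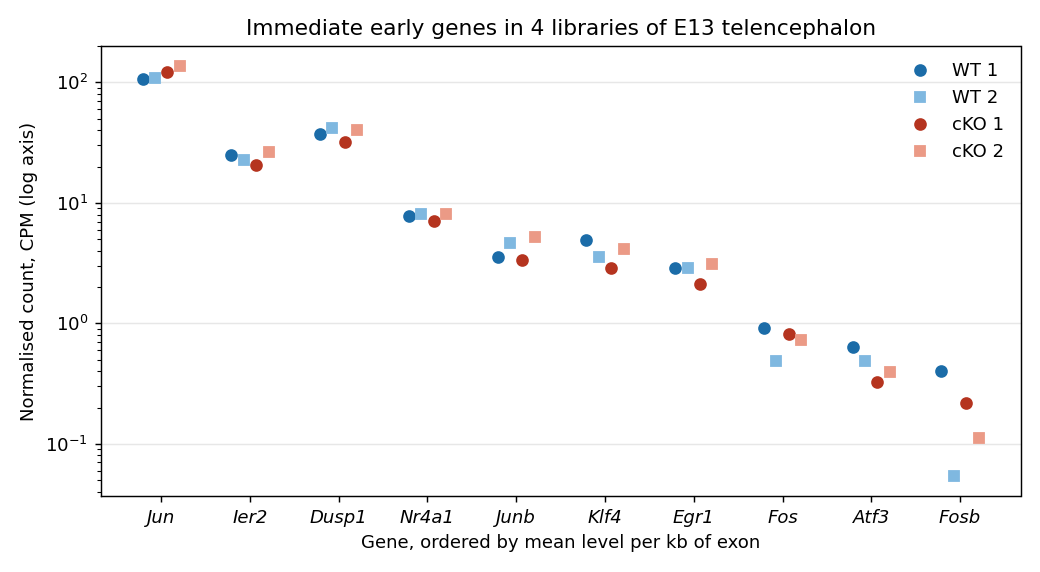
Normalised counts in CPM (vertical log axis) of the 10 immediate early genes, ordered by mean level per kb of exon; each point is 1 library. Jun reaches 107.1 to 135.8 CPM while Fosb stays between 0.0543 and 0.403 CPM, and the points of WT and cKO interleave for most genes.

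The genes also share a compact structure, which the choice of genes did not use. Of the 10, 9 have a shorter gene span than the median protein-coding gene tested, with a median of 4698 bases against 25277. Atf3 is the exception. Ier2 and Jun consist of a single exon block. The median exon length was 3119 bases, against 4589 for protein-coding genes tested.

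Whether the libraries labelled cKO differed from WT was tested for each gene with edgeR's quasi-likelihood test over the 16145 genes that passed a filter on low counts. A gene was called where it differed 2-fold or more with an unadjusted p no higher than 0.05. Of the 10 genes, 8 passed the filter, and none of these was called, where 0.811% of all genes tested were. None had an unadjusted p under 0.05. At a Benjamini-Hochberg adjusted p under 0.05 the share of all genes was 0%. At an unadjusted p under 0.05 there were 199 genes in edgeR and 127 in DESeq2, which also gave 0 genes at the adjusted threshold. Both numbers are fewer than this threshold would give with no difference in any gene, so these tests were conservative here. The log2 fold changes of the 8 genes ran from -0.27 to 0.25 with a median of -0.05, against -0.01 over all genes tested. Of the 8, 3 lay above 0 and 5 below, and 52.1% of all genes tested lay below. For 6 of the 8 genes, the 95% interval of the fold change lay between 0.5 and 2.

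The AP-1 subunits came first. Jun (ENSMUSG00000052684, chr4:95049034-95052222, minus strand) was counted 1862 times in WT 1 and 2018 times in WT 2, against 2214 in cKO 1 and 2427 in cKO 2. The mean of the WT libraries was 108.3 ± 1.77 CPM (SD, n = 2), that of the cKO libraries 128.4 ± 10.5 CPM (SD, n = 2). Both cKO libraries lay above both WT libraries, a pattern that 11.0% of all genes tested shared, and Jun was the 1 gene of the 8 that showed it. The log2 fold change of 0.25 had a standard error of 0.15 and an edgeR adjusted p of 0.9999. This is 1.19-fold, with a 95% interval from 0.939 to 1.5. Counting error alone gave an exact Clopper-Pearson interval of 1.13 to 1.23 for the ratio of summed counts, narrower than the interval that includes the spread between libraries. In fits that omit 1 library it lay between 0.17 and 0.33. Without cKO 1 the unadjusted p was 0.0228 in the same test (adjusted p = 0.2411), which was the 1 fit in which any of the 8 genes had a p under 0.05. In that fit 2484 of the 16145 genes had one, against 199 with all libraries. The antisense gene Junos shares 232 of the 3189 exon bases of Jun and had 30, 41, 44 and 46 counts in the same order of libraries.

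Junb (ENSMUSG00000052837, chr8:84974484-84978718, minus strand) had counts of 62 and 86 in WT 1 and WT 2, and of 61 and 93 in cKO 1 and cKO 2. The libraries numbered 2 were higher than those numbered 1 under both labels, and the groups overlapped. Its log2 fold change was 0.05 (standard error 0.35, 0.588-fold to 1.82-fold), from -0.29 to 0.34 with a library left out. Prdx2, a peroxiredoxin gene on the opposite strand, shares 173 of the 2301 exon bases of Junb. It had 9097 and 9594 counts in WT 1 and WT 2, and 8878 and 10828 in cKO 1 and cKO 2. The strand setting of the counting was not given in the sources used here, so reads of Junb and Prdx2 on the shared bases cannot be told apart.

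Fos (ENSMUSG00000021250, chr12:85473890-85477273, plus strand) had few counts, 16 in WT 1 and 9 in WT 2, with 15 and 13 in cKO 1 and cKO 2. The WT libraries held both the highest and the lowest value, 0.920 and 0.489 CPM. The log2 fold change of 0.14 (standard error 0.55) had an interval from 0.459-fold to 2.65-fold. Counting error alone gave 0.619 to 1.97 (exact Clopper-Pearson). It turned to -0.24 without WT 2 and was 0.66 without WT 1.

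Fosb and Atf3 did not pass the filter. Fosb (ENSMUSG00000003545, chr7:19302696-19310051, minus strand) had 7, 1, 4 and 2 counts, and the ratio of summed counts, cKO over WT, was 0.738 (95% interval 0.211 to 2.43, exact Clopper-Pearson). Atf3 (ENSMUSG00000026628, chr1:191170296-191218039, minus strand) had 11, 9, 6 and 7 counts. Its cKO libraries were both lower than either WT library, a pattern that 10.8% of all genes tested showed and 0 of the 8 tested genes. The Atf3 ratio was 0.640, from 0.292 to 1.35 by the same method, and these intervals cover counting error only. In a fit that kept every gene with a count, the log2 fold change was -0.62 (standard error 0.80) for Atf3 and -0.43 (standard error 1.32) for Fosb.

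Among the zinc finger and nuclear receptor factors, Nr4a1 varied least. Nr4a1 (ENSMUSG00000023034, chr15:101266846-101274792, plus strand) was counted 136 and 148 times in WT 1 and WT 2, and 129 and 145 times in cKO 1 and cKO 2. Its highest library was 1.15 times its lowest, and the fold change was 0.956 with an interval from 0.638 to 1.43. Egr1 (ENSMUSG00000038418, chr18:34859823-34864984, plus strand) had 50, 53, 39 and 56 counts. The WT libraries were both at 2.88 CPM, between cKO 1 at 2.13 and cKO 2 at 3.13. Its log2 fold change was -0.13 (standard error 0.37, 0.507-fold to 1.65-fold), and 0.12 without cKO 1.

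Klf4 (ENSMUSG00000003032, chr4:55527143-55532466, minus strand) was counted 86 and 65 times in WT 1 and WT 2, and 53 and 74 times in cKO 1 and cKO 2, and the groups overlapped. Klf4 averaged 4.24 ± 1.00 CPM (SD, n = 2) under the WT label and 3.52 ± 0.880 CPM (SD, n = 2) under the cKO label. Its log2 fold change of -0.27 was the lowest of the 8 (standard error 0.36, 0.471-fold to 1.47-fold), and was -0.01 without WT 1, -0.48 without WT 2, -0.03 without cKO 1 and -0.53 without cKO 2. The 12 endothelial markers summed to 301.5 and 228.4 CPM in WT 1 and WT 2, against 196.6 and 211.2 CPM in cKO 1 and cKO 2. Like Klf4, this sum was highest in WT 1 and lowest in cKO 1, as were those for blood, microglia, choroid plexus and ventral telencephalon. Klf4 was higher in cKO 2 than in WT 2, and the endothelial sum was not. Single endothelial markers differed from the sum: Emcn, Kdr and Tek were lowest in cKO 2, and Cldn5 and Tie1 were not highest in WT 1. All 12 endothelial markers had a log2 fold change below 0 with 0 called. The median log2 fold change of the endothelial markers went from -0.39 to -0.13 without WT 1. The part of any of these markers in the level of Klf4 was not tested.

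Ier2 (ENSMUSG00000053560, chr8:84661331-84662852, minus strand) was counted 437 and 422 times in WT 1 and WT 2, and 376 and 469 times in cKO 1 and cKO 2. The cKO libraries held both the lowest and the highest value. Its log2 fold change was -0.04 (standard error 0.20, 0.707-fold to 1.34-fold). Dusp1 (ENSMUSG00000024190, chr17:26505590-26508519, minus strand) had 648, 772, 589 and 716 counts. Dusp1 averaged 39.6 ± 3.29 CPM (SD, n = 2) under the WT label and 36.1 ± 5.57 CPM (SD, n = 2) under the cKO label, with overlapping groups and a log2 fold change of -0.13 (standard error 0.19, 0.678-fold to 1.23-fold).

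**Figure D3:**
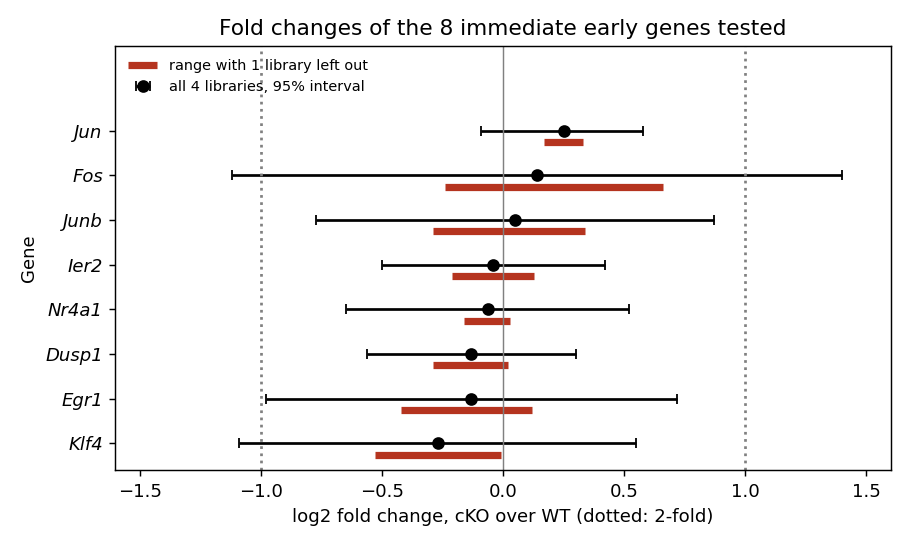
Log2 fold change, cKO over WT, of the 8 immediate early genes tested (points) with 95% intervals from edgeR (black bars) and the range of values with 1 library left out (red bars); dotted lines mark 2-fold. Every black bar crosses 0, and those of Fos and Klf4 reach past a 2-fold difference.

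Libraries that carry the same label also differed from each other. Between WT 1 and WT 2, the absolute difference in log2 (CPM + 1) ran from 0.00 for Egr1 to 0.41 for Fosb, with a median of 0.15 over the 10 genes and 0.16 over all genes tested. Between cKO 1 and cKO 2 it ran from 0.07 for Atf3 to 0.52 for Junb, with a median of 0.24 against 0.26 over all genes tested. Adding 1 compresses differences between values under 1 CPM, as for Fos, Fosb and Atf3. With 0.1 added instead, Fosb differed by 1.70 and Fos by 0.79 between the WT libraries. None of the 8 genes tested was 2-fold apart in either pair, where 1.42% of all genes tested were between the WT libraries and 2.59% between the cKO libraries. From the highest to the lowest of the 4 libraries, 0 of the 8 genes differed 2-fold, against 17.0% of all genes tested.

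Of the 4 libraries, cKO 1 was the lowest library for 7 of the 10 genes and the highest for 0, while 27.3% of all genes tested were lowest there. Jun, Fos and Fosb were the exceptions. In the wider set of immediate early genes described below, cKO 1 was the lowest library for 16 of the 41 tested. cKO 2 was the highest for 5 of the 10. The 10 genes lay on average 0.13 below their own mean in cKO 1 on the log2 (CPM + 1) scale, and 0.08 above it in cKO 2, so that the lowest and the highest mean both came from cKO. The sum of the ventral telencephalon markers was also lowest in cKO 1, at 817.4 CPM against 1181.3 to 1241.7 in the others. Within that list, Gad1, Isl1 and Ebf1 were lowest in cKO 2 and the other markers in cKO 1. Also lowest in cKO 1 were the sums for endothelium (196.6 CPM), blood (477.2 CPM), microglia (34.5 CPM) and choroid plexus (14.3 CPM). Those for pericytes, meninges and mesenchyme, cortical progenitors and cortical neurons were not. The part of any of these markers in this pattern was not tested.

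**Figure D4:**
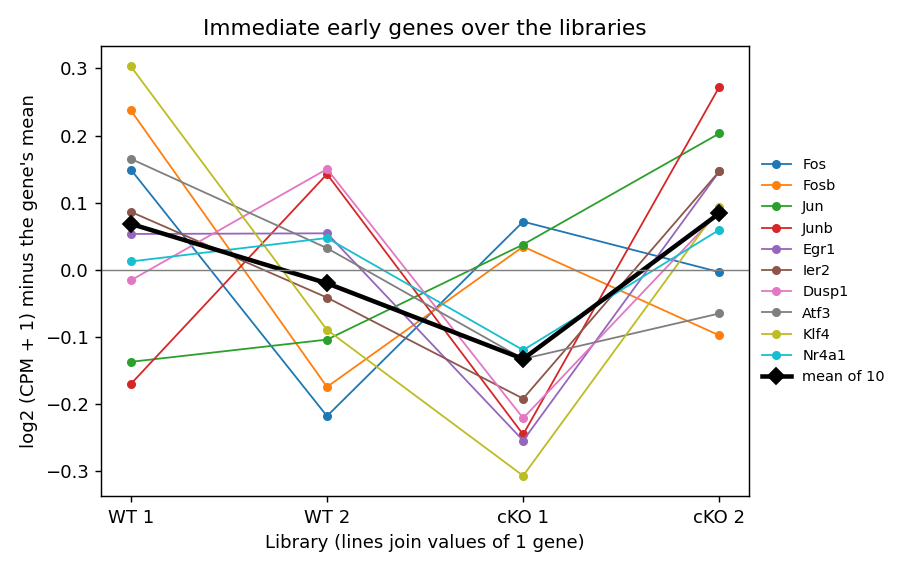
Log2 (CPM + 1) of each of the 10 immediate early genes minus its own mean (vertical axis) in the 4 libraries; lines join the values of 1 gene and the thick black line is the mean of the 10. The mean is lowest in cKO 1, at -0.13, and highest in cKO 2, at 0.08.

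Likeness of pattern was measured by the root mean square difference from this mean profile over the 4 libraries, among 11526 other genes with a mean of at least 5 CPM. The closest were Tmem231 (0.0028 on the log2 scale), Ctsf (0.0039) and Bcl7c (0.0054). The mean profile spans so narrow a range that such likeness is a description only.

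The wider set of immediate early genes, a list of 44 of which 43 were in the table and 41 tested, had no called gene either, and 4 of the 41 differed 2-fold from highest to lowest library, beside 17.0% of all genes tested. Of these 41, 28 had a log2 fold change below 0 and 13 above, with a median of -0.07 (from -0.09 to -0.04 with a library left out). For 7 of the 41 each cKO value was under each WT value, and for 2 above, beside 10.8% and 11.0% of all genes tested. Btg2, an antiproliferative gene, had a mean of 115.1 CPM and a log2 fold change of 0.07 (standard error 0.14). Ier5, at 115.2 CPM, had 0.14 (standard error 0.16), and the Polo-like kinase gene Plk2, at 91.0 CPM, had -0.17 (standard error 0.16).

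The values farthest from 0 were all negative. Ctgf, a matricellular growth factor gene, was counted 89 times in WT 1 and 28, 27 and 30 times in WT 2, cKO 1 and cKO 2. Its log2 fold change of -1.07 (standard error 0.57, unadjusted p of 0.0978 in edgeR's fit) rested on WT 1, and was 0.05 without that library. It was called, at -1.69, in the fit without WT 2, and also where no filter was set. Egr3, a relative of Egr1, was counted 61 and 67 times under WT, 40 and 35 times under cKO, with no overlap. Its log2 fold change of -0.78 had a standard error of 0.35 and an edgeR adjusted p of 0.9999, and ran from -0.87 to -0.69 with a library left out.

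Apold1, an early response gene of endothelium, had 131, 106, 55 and 90 counts and a log2 fold change of -0.72 (standard error 0.35). Sgk1, a serum-inducible and glucocorticoid-inducible kinase gene, had 288, 198, 128 and 186 counts and a log2 fold change of -0.65 (standard error 0.31). WT 1 was the highest and cKO 1 the lowest library for both. The endothelial sum had the same highest and lowest library, though not every marker did, and the part of these markers was not tested. Without WT 1 the values were -0.52 for Apold1 and -0.31 for Sgk1. Over all fits without 1 library they ran from -1.13 to -0.40 and from -0.95 to -0.31, and Apold1 was called in the fit without cKO 2. Bdnf, the gene of a neurotrophin induced by activity, had 14, 19, 12 and 11 counts and a log2 fold change of -0.53 (standard error 0.50), from -0.69 without WT 1 to -0.33 with another library left out. Among other Egr genes, Egr2 had 7, 2, 0 and 1 counts and Egr4 had 0, 0, 0 and 3.

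**Figure D5:**
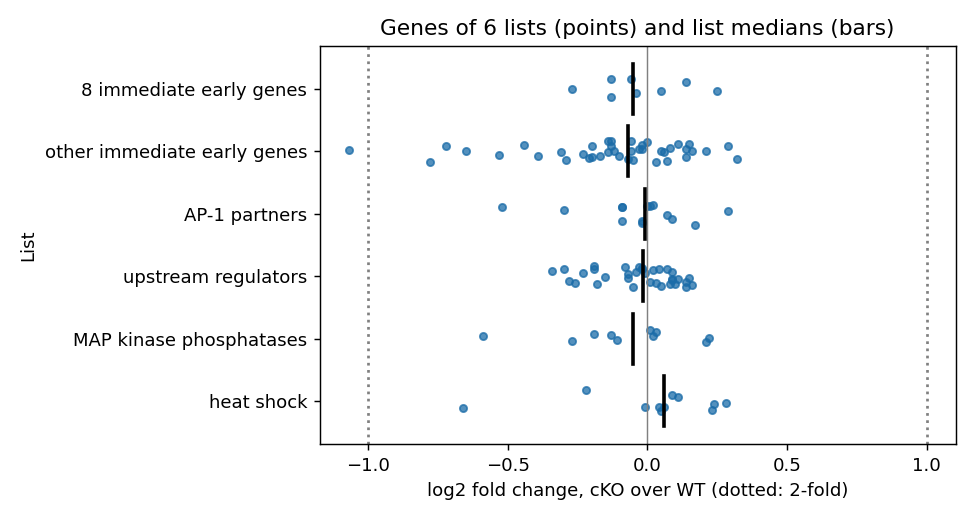
Log2 fold change, cKO over WT, of each tested gene (points, spread vertically for visibility) in 6 lists, with the median of each list (black bars) and dotted lines at 2-fold. The medians lie between -0.07 and 0.06, and Ctgf, at -1.07, is the 1 gene past 2-fold.

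None of the tested partners and regulators of these genes was called. Of 17 AP-1 partners, 16 were in the table and 14 were tested, with a median log2 fold change of -0.01. Atf4, a bZIP factor of the integrated stress response, had 151.0 and 152.0 CPM in the WT libraries, 154.9 in cKO 1 and 185.7 in cKO 2, with both cKO values above both WT values and a log2 fold change of 0.17 (standard error 0.15). Bach2, a bZIP repressor, had 0.07 (standard error 0.20). Nfe2l1, a regulator of proteasome genes, had -0.00 (standard error 0.15).

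All 34 upstream regulators were tested (SRF and its cofactors, CREB and its coactivators, MAP kinases and their targets, and NF-κB subunits). Their log2 fold changes ran from -0.34 to 0.16 with a median of -0.01. Map2k2, a MAP kinase kinase gene, had 0.10 (standard error 0.19), and Mapk8, the gene of a JNK kinase, had -0.19 (standard error 0.20). The 10 other MAP kinase phosphatases, the relatives of Dusp1, had a median of -0.05. Dusp4 was the most abundant at a mean of 166.7 CPM, with a log2 fold change of -0.11 (standard error 0.16), followed by Dusp8 at 0.02 (standard error 0.19) and Dusp16 at 0.22 (standard error 0.20).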

How the data were processed

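Counts per gene were read from the deposited table of 4 libraries, in which the authors gave raw, unnormalized read counts. TopHat2 2.0.12, Bowtie2 2.2.3, HTSeq 0.6.0 and the build mm9 are listed in the submitters' processing notes. The positions of the table, however, matched GENCODE M21 (GRCm38) within 1 base at a start or end for 97.3% of 27232 genes, and were read as GRCm38. Of 27304 rows, 11 (0.0403%) are blank and were left out. Columns of the authors' own comparison (fold changes, p-values) and a second table of WT 1 and cKO 1 were not used.

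The cKO and WT libraries were compared per gene by glmQLFit and glmQLFTest of edgeR 4.0.16 (R 4.3.3), after TMM normalization and filterByExpr and with no covariate, and p-values were adjusted over all 16145 genes. The standard error was the log2 fold change over the square root of the F statistic, and the 95% interval used the t quantile at the fitted degrees of freedom. Calls used the fold and p thresholds of the methods of the study. The procedure was tested on simulated data. Alternatives were RLE and upper-quartile normalization, no filter, at least 10 counts in every library, DESeq2 1.42.0, a replicate block, leaving out each library, a p of at most 0.01 and a pseudocount of 0.1. A fit with a library left out assumes that the lone library varies like the other group.

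The members and lists were chosen with earlier results of these data known, and no set test was made. Named genes were all members and, of each list, called genes and the 3 with the highest mean CPM, with the 5 largest absolute log2 fold changes of the other immediate early genes and those nearest the members' mean profile. Egr2, Egr4 and the genes overlapping Jun and Junb were named outside this rule, after their values were seen, and 1 gene within it is not reported here.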

Additional observations from a re-analysis of the deposited data

How the results depend on the processing

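None of the 8 immediate early genes tested was called under any alternative, and 71 of 79 values kept their direction. The other 8 came from fits without 1 library, in which the log2 fold change ran from -0.24 to 0.66 for Fos, -0.29 to 0.34 for Junb, -0.42 to 0.12 for Egr1, -0.21 to 0.13 for Ier2, -0.29 to 0.02 for Dusp1 and -0.16 to 0.03 for Nr4a1. Their median ran from -0.25 without cKO 2 to 0.09 without cKO 1. Of all genes, 131 were called. There were 405 with no filter, 72 where every library had to have 10 counts, 65 with DESeq2, 14 at a p of at most 0.01 and 100 to 517 with a library left out (383 without WT 2 and 517 without cKO 1). At an adjusted p under 0.05 there were 0 in edgeR (199 at an unadjusted p under 0.05), 65 with no filter and 0 to 80 with a library left out (7 without WT 1 and 80 without WT 2). With a replicate block 208 genes were called and 5 had an adjusted p under 0.05, but no source says that a number marks a shared litter, and deviations correlated at 0.139 over genes between libraries sharing a number. The cause of these shifts was not tested. With a pseudocount of 0.1, 1 of the 10 genes, Fosb, was 2-fold apart between the WT libraries. The depth limits Fosb and Atf3 most, which had 1 to 11 counts per library.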

Other observations

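Heat shock genes, which encode chaperones and respond to stress, were read in the same libraries. The 12 genes summed to 6579.5 and 6750.4 CPM in WT 1 and WT 2, against 7017.9 and 7605.4 CPM in cKO 1 and cKO 2, and Hsp90ab1 and Hspa8, which are expressed without stress, had the highest levels. Of the 11 tested, 0 were called, 8 had a log2 fold change above 0 and the median was 0.06. Hspa8, a constitutive chaperone gene, had 1859.1 CPM in WT 1 and 2515.7 in cKO 2, with a log2 fold change of 0.24 (standard error 0.18), while Hsp90ab1 had 0.09 (standard error 0.18) and Hsp90aa1 0.04 (standard error 0.18). Among the 11 tested, the lowest values were those of Hspb1, at -0.66 (standard error 0.53), and Hspa1b, at -0.22 (standard error 0.44). Hspb1 had 19, 25, 9 and 19 counts. The highest value was that of Hsph1, at 0.28 (standard error 0.15), where both cKO libraries lay above both WT libraries. Hspb1, Hspa1b and Hsph1 were picked with their values already known.

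The 10 blood markers summed to 1092.5 CPM in WT 1 and 592.5 in WT 2, with 477.2 in cKO 1 and 729.0 in cKO 2, and Hbb-y, an embryonic globin gene, had a log2 fold change of -0.68 (standard error 0.40), with 474.9 CPM in WT 1 and 162.6 to 246.5 in the others. The 12 microglial markers summed to 54.3, 38.1, 34.5 and 42.9 CPM and the 9 pericyte markers to 278.1, 206.1, 216.2 and 231.3 CPM in the same order. No gene of these lists was called, and without WT 1 their median log2 fold changes went from -0.39 to 0.09 for blood, from -0.18 to 0.06 for microglia and from -0.30 to 0.06 for pericytes.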
